A study of Mus musculus with 63 samples.

Results

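CaMKII-mDlx double-positive cells sorted from the motor cortex were compared between burn- and sham-injured mice. The libraries were chosen by their sort and treatment labels, which gave 16 of the 63 libraries of the series, 9 burn and 7 sham, each from a different mouse. A further pair of deposited libraries of this sort was not used in the comparison. Burn mouse 3 had skin ulceration, and the library of sham mouse 8 held 331215 counts.

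The study profiled 4 sorted cortical populations by total RNA-sequencing to find what a non-severe burn leaves behind in brain cells. All mice were female C57BL/6J, 12 weeks old at the start, with no engineered allele. Mice of both groups received the same viral mixture in both motor cortices, carrying eGFP under the CaMKII promoter and nuclear mRuby2 under the mDlx enhancer, so that injection and viral expression were common to burn and sham. The burn group then received a full-thickness contact burn of 7 to 8% of the body surface on the shaved flank, the sham group was shaved but not burned, and cells were sorted 5 weeks later. Sequencing batch 1 held 3 burn and 0 sham libraries of this comparison, batch 2 held 1 burn and 2 sham, and batch 3 held 5 of each. With batch in the model, the contrast therefore rested on the 13 libraries of batches 2 and 3.

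The CaMKII promoter is active in excitatory neurons and the mDlx enhancer in forebrain GABAergic interneurons, which make GABA with the enzymes GAD67 and GAD65, the products of Gad1 and Gad2. Microglia are the resident macrophages of the brain and depend on the receptor CSF1R. In their resting state they express a set of homeostatic genes, and after injury they can shift towards inflammatory, interferon-responsive or lipid-handling states.

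The deposited labels call these cells inhibitory neurons, but their RNA was mostly that of microglia. Csf1r ranged from 4299 to 8905 CPM (median 5228) in the burn libraries and from 4415 to 7003 CPM (median 5222) in the sham libraries, and the groups overlapped. The burn and sham levels of Csf1r differed by less than the spread between mice (log2FC = -0.024, SE 0.11, p.adj = 1). Gad1 ranged from 0 to 1.47 CPM (median 0.634) in the burn libraries and from 0.275 to 2.08 CPM (median 0.687) in the sham libraries (log2FC = -0.44, SE 0.77, p.adj = 0.997). Gad2 ranged from 0.159 to 0.980 CPM (median 0.423) in the burn libraries and from 0.200 to 1.50 CPM (median 0.589) in the sham libraries (log2FC = -0.19, SE 0.67, p.adj = 1). The groups overlapped for both GABA-synthesis genes. Camk2a, a subunit of the kinase that gives the promoter its name, ranged from 12.1 to 52.0 CPM (median 21.8) in the burn libraries and from 14.7 to 35.3 CPM (median 19.8) in the sham libraries (log2FC = 0.15, SE 0.24, p.adj = 0.995). Per kilobase of exon, the mean level over the 16 libraries was 1001 ± 232 CPM per kb (SD) for Csf1r, 3.23 ± 1.31 for Camk2a, 0.0947 ± 0.0713 for Gad1 and 0.0974 ± 0.0592 for Gad2.

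Whole marker lists gave the same picture. All 15 of 15 microglial markers had a mean of at least 1 CPM, and 0 of 15 inhibitory-neuron markers did. The summed level of the microglial list ran from 21409 to 40058 CPM, close to the 25602 to 39619 CPM in the 15 CD11b-positive libraries and above the 567 to 2470 CPM in the 10 CaMKII-positive libraries. The inhibitory list summed to between 1.66 and 6.30 CPM. Of the interneuron subclass markers, Pvalb was detected in 8 of 16 libraries, Sst in 4 and Vip in 4, at no more than 14, 13 and 8 counts. The population is therefore called double-positive here, after its sort, and the changes tested are those of libraries in which microglial RNA predominated. In such bulk libraries, fewer cells of a type and less RNA per cell cannot be told apart.

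The 16 libraries held 14156588 to 53824290 counts (median 21705295), with 16393 to 20059 genes at 10 counts or more and 0.414 to 0.983% of counts on mitochondrial genes. Among all 18 deposited libraries of this sort, the counts of every one of the 153 pairs differed by more than sampling noise (lowest chi-square per degree of freedom 14.1), so each library was counted as a separate replicate.

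**Figure D1:**
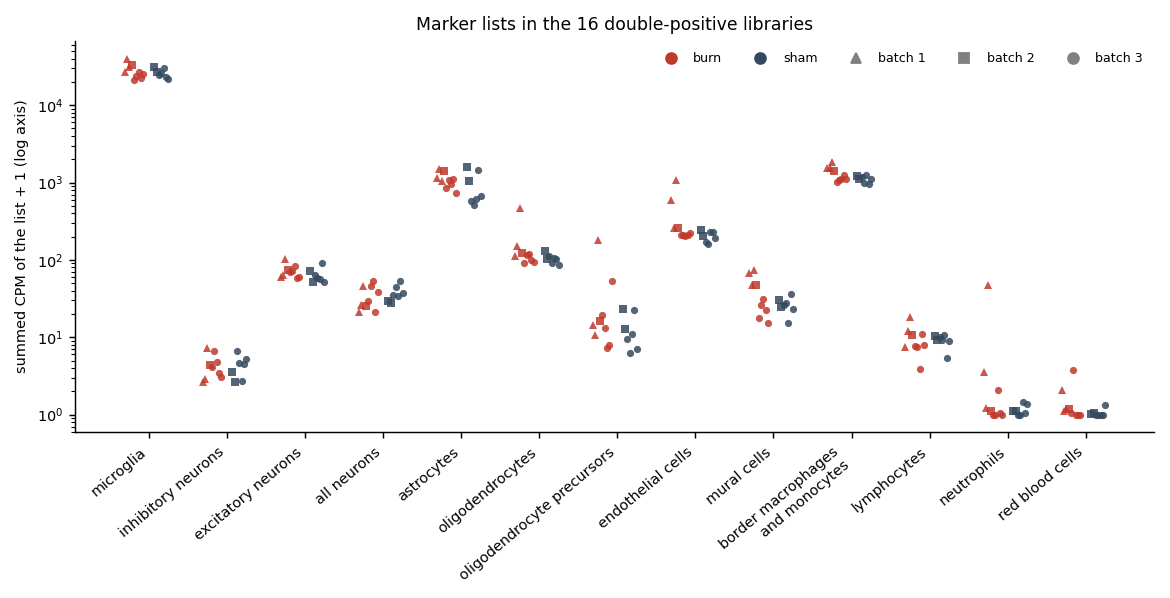
Summed CPM plus 1 of each of the 13 marker lists (log axis) in the 16 double-positive libraries, red for burn and dark for sham, with the sequencing batch as the symbol. The microglial list lies between 21409 and 40058 CPM in every library and the inhibitory list between 1.66 and 6.30 CPM, with burn and sham overlapping in each list.

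Burn and sham libraries were then compared in their cell makeup. For none of the 13 marker lists did the burn and sham levels differ by more than the spread between mice in an exact two-sided permutation test within batches (756 arrangements, smallest p possible 0.00265, smallest adjusted p over the 13 lists 0.709). The microglial list ran from 21409 to 40058 CPM (median 26622) in burn and from 21530 to 31009 CPM (median 25683) in sham libraries, a batch-adjusted difference of 0.00071 on the log2 scale (exact p = 0.992). The astrocyte list ran from 731 to 1502 CPM (median 1093) in burn and from 518 to 1570 CPM (median 662) in sham libraries. Its batch-adjusted difference was 0.34 (exact p = 0.184), with 0.12 within batch 2 and 0.40 within batch 3. Leaving out sham mouse 18 gave 0.54 (exact p = 0.0132, adjusted p = 0.172), and leaving out each other mouse gave 0.25 to 0.41 (exact p from 0.135 to 0.328). The endothelial list differed by 0.13 (exact p = 0.172) and the border macrophage and monocyte list by 0.078 (exact p = 0.332). With each mouse left out, these differences ran from 0.085 to 0.18 and from 0.025 to 0.12. The neutrophil list was at or below 0.441 CPM in all sham libraries and had a burn median of 0.124 CPM, with 45.9 CPM in burn mouse 10.

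Across all genes, no difference between burn and sham passed the thresholds. Of 26707 genes tested with edgeR, 0 (0.00%) reached an adjusted p of 0.05 and an absolute log2FC of 1, and the smallest adjusted p was 0.708. An unadjusted p below 0.05 was reached by 1872 genes (7.01%), 929 higher (3.48%) and 943 lower (3.53%) in burn. Among the 15637 genes with a mean of at least 1 CPM the figure was 493 (3.15%), with 204 higher (1.30%) and 289 lower (1.85%). DESeq2 on the same counts called 2 of 26523 genes (0.00754%), both low-count genes described below, and gave 1146 genes an unadjusted p below 0.05. In 0 of the 26707 genes (0.00%) did all burn libraries lie above or below all sham libraries in CPM.

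The precision of the comparison varied between genes. Among those with at least 1 CPM the median SE of the log2FC was 0.17, with a 10th percentile of 0.081 and a 90th of 0.50. The 95% confidence interval lay within 1 log2 unit of 0 for 12301 genes (78.7%) and within 0.5 for 8140 (52.1%). The median log2FC over all genes tested was -0.0039. With the libraries of burn mouse 3 and sham mouse 8 added, 136 genes were called, all lower in burn. Adding the microglial list as a covariate left 0 genes called and 1701 with an unadjusted p below 0.05, and adding the astrocyte list left 0 called and 1359.

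**Figure D2:**
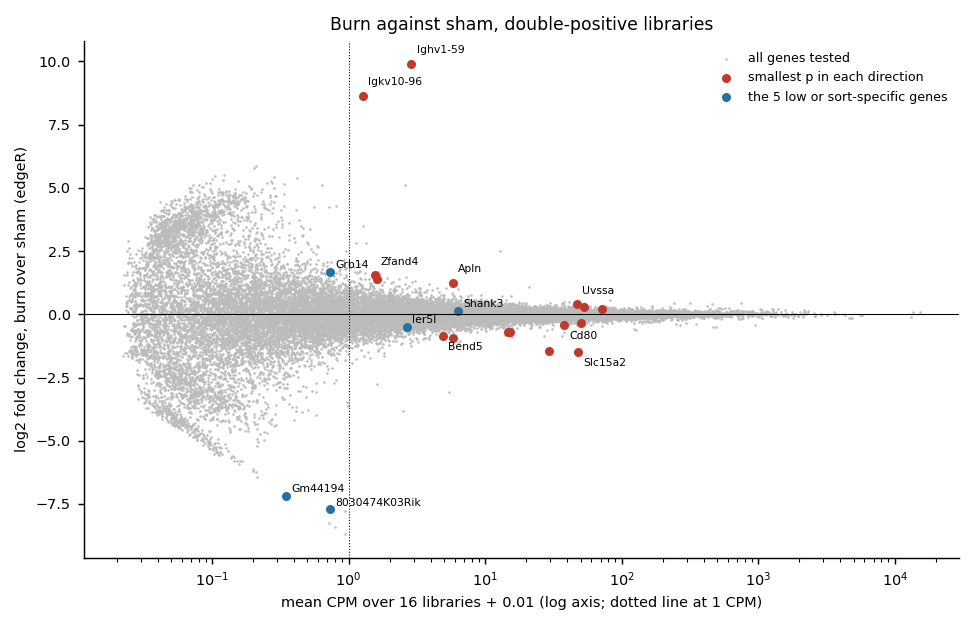
The log2 fold change of burn over sham from edgeR (vertical) against mean CPM plus 0.01 over the 16 libraries (horizontal, log axis), 1 point per gene tested. Red points are 8 genes per direction, those of lowest p above 1 CPM, blue points are Gm44194, 8030474K03Rik, Shank3, Ier5l and Grb14, and the scatter narrows from left to right, with 12301 of the 15637 genes right of the dotted line having an interval within 1 of 0.

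The 8 genes with the smallest p in the direction of higher levels in burn, among those with at least 1 CPM, are given as values, since none passed the adjusted threshold. Apln, which encodes the secreted peptide apelin, ranged from 2.11 to 13.1 CPM (median 7.83) in the burn libraries and from 1.70 to 7.41 CPM (median 3.53) in the sham libraries. The libraries of burn mice 2, 10, 21 and 24 lay within the sham range and the other 5 burn libraries above it (log2FC = 1.24, SE 0.35, p.adj = 0.708, unadjusted p = 0.00194). Folr2, a folate receptor carried by border macrophages, ranged from 1.18 to 3.50 CPM (median 1.86) in the burn libraries and from 0.258 to 1.30 CPM (median 0.839) in the sham libraries. Burn mouse 7 lay below the highest sham library and the other 8 burn libraries above all sham libraries (log2FC = 1.40, SE 0.43, p.adj = 0.708, unadjusted p = 0.00405). Zfand4, a zinc-finger gene, ranged from 0.955 to 4.57 CPM (median 1.74) in the burn libraries and from 0.494 to 1.85 CPM (median 0.785) in the sham libraries (log2FC = 1.54, SE 0.47, p.adj = 0.708, unadjusted p = 0.0038). The sham libraries nearest to the burn levels of Zfand4 were those of mice 12 and 13, both of batch 2.

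The other genes on this side were either small differences at higher levels or the signal of a single library. Eif4e, the cap-binding translation initiation factor, ranged from 50.6 to 69.0 CPM (median 54.3) in the burn libraries and from 42.0 to 54.4 CPM (median 48.5) in the sham libraries (log2FC = 0.28, SE 0.084, p.adj = 0.708). Uvssa, a factor of transcription-coupled DNA repair, had a log2FC of 0.40 and Rexo1, an RNA exonuclease, of 0.23. The immunoglobulin variable genes Ighv1-59 and Igkv10-96 were at 46.0 and 20.2 CPM in burn mouse 20, at 2 and 1 counts in burn mouse 10, and at 0 in all other libraries. Without that mouse, neither reached the count minimum and neither was tested.

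The 8 genes with the smallest p in the direction of lower levels in burn included 3 histone genes, which carry DNA-packaging proteins. Hist1h3i ranged from 7.62 to 16.7 CPM (median 10.9) in the burn libraries and from 13.3 to 26.4 CPM (median 19.7) in the sham libraries. The libraries of burn mice 10, 11 and 20 lay within the sham range and the other 6 burn libraries below it (log2FC = -0.71, SE 0.18, p.adj = 0.708, unadjusted p = 0.000857). Hist1h1a had a log2FC of -0.94 and Hist1h3h of -0.70. Histone genes have near-identical copies, so reads could be split among them. Cd80, a costimulatory ligand for T cells, ranged from 26.1 to 41.0 CPM (median 34.7) in the burn libraries and from 33.6 to 50.0 CPM (median 43.9) in the sham libraries (log2FC = -0.41, SE 0.11, p.adj = 0.708, unadjusted p = 0.00102). Within batch 3 alone its log2FC was -0.51.

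Slc15a2, a peptide transporter, ranged from 8.43 to 99.8 CPM (median 27.5) in the burn libraries and from 12.7 to 117 CPM (median 51.6) in the sham libraries. All burn libraries except that of mouse 11 lay within the sham range, and those of mice 2 and 20 lay above the sham median (log2FC = -1.48, SE 0.38, p.adj = 0.708, unadjusted p = 0.000861). ENSMUSG00000120777, a gene without a symbol in the table used, had a log2FC of -1.46, with CPM from 7.46 to 45.9 in burn and from 9.20 to 62.6 in sham libraries. Bend5, a BEN-domain gene, ranged from 2.11 to 5.70 CPM (median 4.08) in the burn libraries and from 4.43 to 8.11 CPM (median 5.65) in the sham libraries (log2FC = -0.84, SE 0.23, p.adj = 0.708). Card6, which encodes a CARD-domain protein, had a log2FC of -0.33 at 46.5 ± 6.20 CPM in burn and 55.0 ± 5.03 CPM in sham libraries. Run without any filter on low counts, edgeR called 14 of 33005 genes (0.0424%), among them Slc15a2 (p.adj = 2.36e-09), ENSMUSG00000120777 (p.adj = 4.96e-09), Ighv1-59 and Igkv10-96.

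The transcripts that DESeq2 called were carried by few reads. Gm44194, on chromosome 6 and annotated as a transcript to be experimentally verified, had counts in 2 of 9 burn libraries, both of batch 1 and with 4 and 8 counts, and in 6 of 7 sham libraries, with up to 27 counts. Its sham levels ran from 0 to 1.74 CPM against 0 to 0.205 in burn. The fitted log2FC was -7.18 in edgeR (SE 1.57, p.adj = 0.708) and -6.51 in DESeq2 (p.adj = 0.0285). 8030474K03Rik, a protein-coding gene on the X chromosome, had 187 counts in burn mouse 7 and 0 in the other 8 burn libraries, and 12 to 83 counts in 4 of 7 sham libraries. The library with the most reads of this gene was thus a burn library, of batch 1, the batch with 0 sham libraries. Its fitted log2FC was -7.71 in edgeR (p.adj = 0.708), -20.10 in DESeq2 (p.adj = 2e-05) and -0.86 in edgeR without the batch term. With burn libraries at 0 in batches 2 and 3, these estimates are no bound on the size of a difference.

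A further 3 genes that the study names in other sorts were read out here too. Shank3, a postsynaptic scaffold, ranged from 1.91 to 26.2 CPM (median 5.33) in the burn libraries and from 2.60 to 5.77 CPM (median 4.03) in the sham libraries (log2FC = 0.15, SE 0.32, p.adj = 1). Ier5l, an immediate early response gene, ranged from 0.359 to 4.44 CPM (median 2.73) in the burn libraries and from 1.21 to 5.93 CPM (median 2.81) in the sham libraries (log2FC = -0.50, SE 0.51, p.adj = 0.968). Grb14, an adaptor that binds the insulin receptor, ranged from 0.256 to 3.91 CPM (median 0.607) in the burn libraries and from 0 to 0.483 CPM (median 0.280) in the sham libraries (log2FC = 1.69, SE 0.87, p.adj = 0.737). None of these passed the threshold, and each had overlapping groups.

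**Figure D3:**
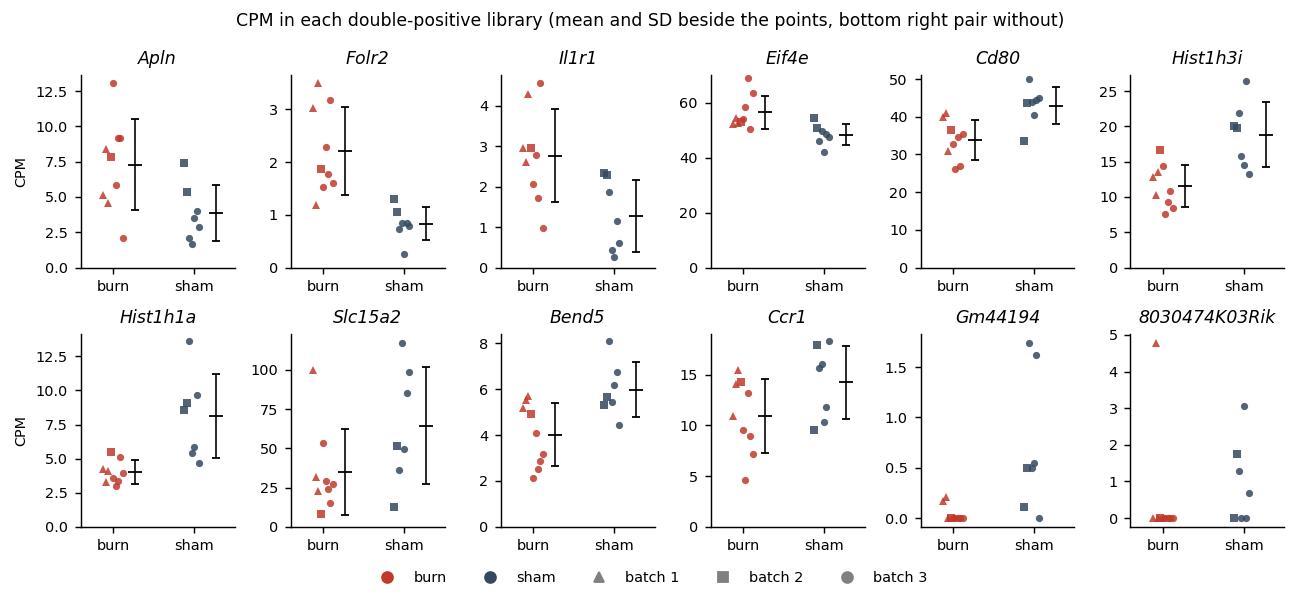
CPM of 12 genes in each double-positive library, burn in red and sham in dark, with the batch as the symbol and the mean and SD beside the points except for the last pair. The ranges overlap in every panel, 8030474K03Rik is highest in a burn library of batch 1 at 4.79 CPM, and the Gm44194 counts of burn libraries are 0 outside batch 1.

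The homeostatic programme of microglia was measured tightly. Of the 18 homeostatic genes tested, 0 had an unadjusted p below 0.05 (background 7.01% of all genes tested and 3.15% of those with at least 1 CPM), all 18 had a 95% confidence interval within 1 log2 unit of 0, and the median log2FC was 0.011, beside -0.0039 for all genes tested. P2ry12, the ADP receptor that guides microglial processes, was at 2261 ± 349 CPM in burn and 2219 ± 250 CPM in sham libraries (log2FC = 0.014, SE 0.099, p.adj = 1). Cx3cr1, the fractalkine receptor, was at 3812 ± 935 CPM in burn and 3502 ± 669 CPM in sham libraries (log2FC = 0.014, SE 0.12, p.adj = 1). Tmem119, a microglial surface marker, was at 1464 ± 487 CPM in burn and 1321 ± 250 CPM in sham libraries (log2FC = -0.041, SE 0.11, p.adj = 1). The values of these 3 genes differed by less than the spread between mice. Their burn means in CPM include batch 1, on which the log2FC does not draw.

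Reactive states were described by lists of disease-associated, complement, cytokine, chemokine and Toll-like receptor genes. The disease-associated list had 0 of 22 genes below an unadjusted p of 0.05, against 7.01% of all genes tested and 3.15% of those with at least 1 CPM, and a median log2FC of -0.035. The member with the lowest estimate, Spp1, which encodes osteopontin, ranged from 0.708 to 12.0 CPM (median 1.32) in the burn libraries and from 0.300 to 33.1 CPM (median 3.75) in the sham libraries (log2FC = -1.26, SE 0.90, p.adj = 0.885). Its log2FC was -0.19 without sham mouse 17 and -2.17 without burn mouse 11. Apoe, the lipid carrier, was at 245 ± 56.7 CPM in burn and 232 ± 75.0 CPM in sham libraries (log2FC = 0.076, SE 0.19, p.adj = 1). The complement list had 0 of 19 at that p, with the same shares as background, and a median of -0.0083, with C1qa, a chain of the initiating complex C1q, at 1210 ± 199 CPM in burn and 1175 ± 98.4 CPM in sham libraries.

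The interleukin-1, TNF and NF-kB list had 2 of 25 genes with an unadjusted p below 0.05, both with higher estimates in burn, against 3.48% of all genes tested and 1.30% of those with at least 1 CPM in that direction, and a median log2FC of 0.00068. They were Il1r1, the signalling receptor for interleukin-1, which ranged from 0.977 to 4.55 CPM (median 2.78) in the burn libraries and from 0.258 to 2.34 CPM (median 1.14) in the sham libraries (log2FC = 1.29, SE 0.47, p.adj = 0.708), and Il18, an inflammasome-processed cytokine, at 30.2 ± 3.84 CPM in burn and 27.1 ± 2.82 CPM in sham libraries (log2FC = 0.25, SE 0.098, p.adj = 0.708). Il1b, the cytokine bound by Il1r1, was at 61.8 ± 43.8 CPM in burn and 62.3 ± 44.0 CPM in sham libraries (log2FC = -0.14, SE 0.48, p.adj = 1), and Tnf at 126 ± 51.2 CPM in burn and 144 ± 35.2 CPM in sham libraries (log2FC = -0.15, SE 0.22, p.adj = 0.991). The spread between mice in both cytokines was wider than the difference between the group means. In the chemokine list, 1 of 20 genes passed the unadjusted level, with a lower estimate, against 3.53% of all genes tested and 1.85% of those with at least 1 CPM. It was Ccr1, a receptor for CCL3 and CCL5, which ranged from 4.63 to 15.4 CPM (median 10.9) in the burn libraries and from 9.59 to 18.3 CPM (median 15.7) in the sham libraries (log2FC = -0.54, SE 0.22, p.adj = 0.708). In the Toll-like receptor list, 1 of 23 did, also with a lower estimate, the adaptor Ticam2 (log2FC = -0.27, p.adj = 0.708), and Tlr4 was at 123 ± 23.3 CPM in burn and 113 ± 9.66 CPM in sham libraries (log2FC = 0.016, SE 0.076, p.adj = 1).

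Antigen presentation and interferon lists had medians below 0. In the MHC list 2 of 20 genes had lower estimates at an unadjusted p below 0.05, against 3.53% of all genes tested and 1.85% of those with at least 1 CPM. They were Cd80 and H2-DMb1, a peptide-loading chaperone (log2FC = -0.24, SE 0.11, p.adj = 0.708), and the median log2FC was -0.13. The class II chain H2-Ab1 was at 34.7 ± 51.2 CPM in burn and 41.8 ± 55.3 CPM in sham libraries (log2FC = -0.68, SE 0.79, p.adj = 0.982), with an SD above the mean in both groups. The interferon-stimulated list had 0 of 24 and a median of -0.099, with Irf7, a master regulator of type I interferon, ranging from 8.66 to 54.7 CPM (median 16.7) in the burn libraries and from 13.4 to 40.0 CPM (median 20.0) in the sham libraries (log2FC = -0.54, SE 0.33, p.adj = 0.813). The phagocytic receptor, lysosomal protease and myeloid transcription factor lists had 0 of 20, 0 of 22 and 0 of 20 genes below the unadjusted level, against 3.15% of the genes with at least 1 CPM and 7.01% of all tested, with medians of -0.019, -0.019 and 0.013.

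Glucocorticoids and the circadian clock were covered by a list each. In the glucocorticoid list 3 of 16 genes had higher estimates at an unadjusted p below 0.05, against 1.30% of the genes with at least 1 CPM and 3.48% of all tested, with a list median of 0.069. Fkbp5, the co-chaperone that restrains the glucocorticoid receptor, was at 69.9 ± 7.50 CPM in burn and 60.1 ± 8.56 CPM in sham libraries (log2FC = 0.22, SE 0.090, p.adj = 0.708). Sgk1, a kinase induced by the hormone, was at 681 ± 160 CPM in burn and 522 ± 72.1 CPM in sham libraries (log2FC = 0.25, SE 0.12, p.adj = 0.708), and Per1, a clock gene with glucocorticoid response elements, at 345 ± 93.2 CPM in burn and 280 ± 70.8 CPM in sham libraries (log2FC = 0.44, SE 0.18, p.adj = 0.708). Among the members above the unadjusted level of 0.05 were Tsc22d3, which encodes the glucocorticoid-induced leucine zipper (log2FC = 0.066, SE 0.21, p.adj = 1), and the receptor gene Nr3c1 (log2FC = -0.0069, SE 0.070, p.adj = 1). In the circadian list 2 of 19 genes passed the unadjusted level, both with higher estimates and with the background just given. They were Per1, already counted in the glucocorticoid list, and Arntl, which encodes the clock activator BMAL1, at 25.6 ± 2.72 CPM in burn and 21.7 ± 2.53 CPM in sham libraries (log2FC = 0.30, SE 0.11, p.adj = 0.708).

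In the purinergic list 2 of 16 genes had higher estimates at an unadjusted p below 0.05, both adenosine receptors, against 3.48% of all genes tested and 1.30% of those with at least 1 CPM. Adora1 was at 4.27 ± 2.02 CPM in burn and 2.01 ± 0.988 CPM in sham libraries (log2FC = 1.02, SE 0.38, p.adj = 0.708), and Adora2b at 1.62 ± 0.782 CPM in burn and 0.636 ± 0.623 CPM in sham libraries (log2FC = 1.98, SE 0.76, p.adj = 0.708). Srebf1, a regulator of lipid synthesis, was the single gene below the unadjusted level of 22 in the cholesterol list (log2FC = 0.28, SE 0.11, p.adj = 0.708), with the same background. The TGF-beta, immediate early, heat shock, cell cycle and insulin lists had 0 genes below the unadjusted level, of 18, 25, 16, 18 and 19 tested. The shares in either direction were 7.01% of all genes tested and 3.15% of those with at least 1 CPM. The medians of these lists were between -0.084 and 0.14.

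Synaptic lists differed in how many members reached 1 CPM. Of 15 GABA-A receptor subunits tested, 2 had a mean of at least 1 CPM, Gabrb1 (log2FC = 0.23, SE 0.26, p.adj = 0.979) and Gabrg1 (log2FC = 0.27, SE 0.37, p.adj = 0.99), and 0 had an unadjusted p below 0.05. The median log2FC was -0.91 over all tested and 0.25 over these, so the sign depended on the low genes. Of 15 ionotropic glutamate receptor genes and 15 postsynaptic scaffold genes, 10 and 14 had a mean of at least 1 CPM, 3 and 11 of these had a 95% confidence interval within 1 log2 unit of 0, and 0 had an unadjusted p below 0.05, against 7.01% of all genes tested. In the list of GABA synthesis, release and uptake, 2 of 13 did, against 3.48% of all genes tested, both with higher estimates, Slc6a12 and Slc32a1, whose burn means were 0.0643 and 0.0919 CPM. The SE of the log2FC was 0.77 for Gad1 and 0.67 for Gad2.

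**Figure D4:**
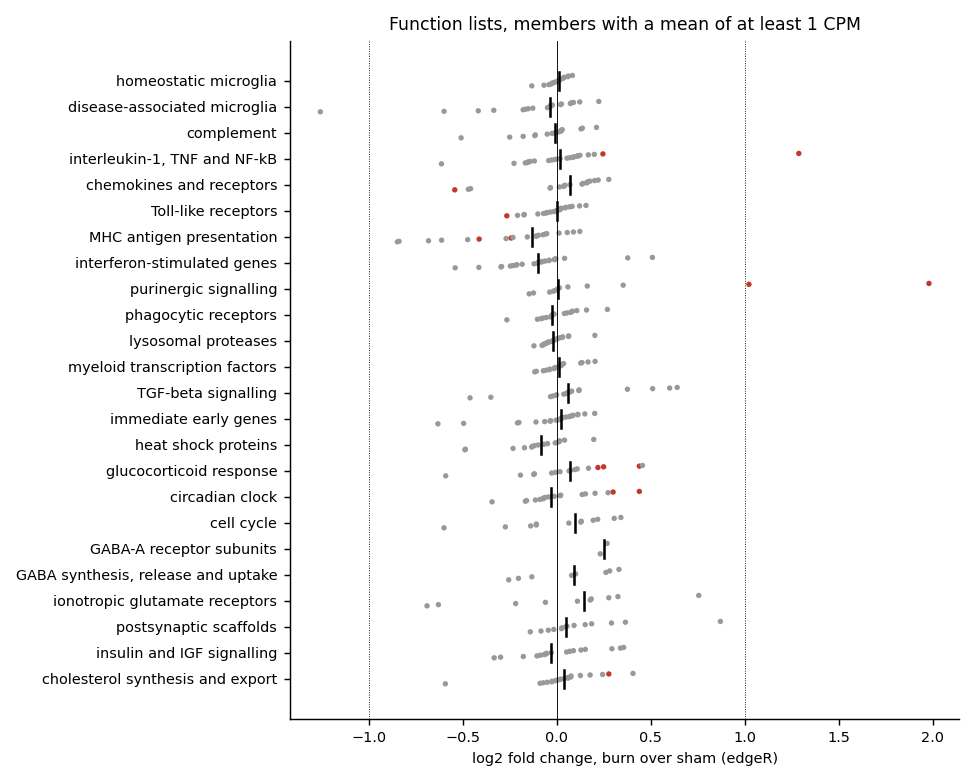
The log2 fold change of burn over sham (edgeR) for each member of the 24 function lists with a mean of at least 1 CPM, red where the unadjusted p is below 0.05, with the list median as a black bar and dotted lines at 1 and -1. The homeostatic members lie within -0.13 and 0.083, and 4 points lie beyond the dotted lines, Spp1 below and Il1r1, Adora1 and Adora2b above.

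The burn effect was last compared with that in CD11b-positive microglia, sorted from the cortex behind the motor area of the same mice. Region and sort differ together between these populations and cannot be told apart. Without using the pairing of mice, and with all libraries of both populations, 0 of 28752 genes (0.00%) had a burn effect that differed between the populations, with 1802 at an unadjusted p below 0.05 (3.25% with a more positive and 3.02% with a more negative log2FC in double-positive cells) and a smallest adjusted p of 0.567. With the mouse as a block, over 14 mice with both libraries, 17 of 28169 genes (0.0604%) did, 15 with a more positive and 2 with a more negative log2FC in double-positive cells. The tested value is the signed log2FC in double-positive cells minus that in CD11b cells. In separate fits, the 15 genes had estimates above 0 in double-positive and below 0 in CD11b libraries and the 2 the reverse, and 0 of 26079 genes were called within CD11b libraries. With the block, the contrast came from the 5 burn and 5 sham mice of batch 3. Refitting without single mice gave between 3 (without sham mouse 17) and 73 (without burn mouse 7) genes, and Gnao1 and Aldoc were called in all 14 of these refits. Refits without a mouse of batch 1 or 2 kept every batch 3 mouse, so the mice behind the contrast were unchanged in them.

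The 15 genes included astrocyte markers. Aldoc, an astrocyte-enriched glycolytic enzyme, was at 6.83 CPM in burn and 10.6 CPM in sham CD11b libraries (medians over all batches), and at 78.8 and 47.5 CPM in double-positive libraries. In batch 3, its double-positive means were 74.8 CPM in burn and 57.2 CPM in sham libraries. In batch 2, the burn library was at 89.6 CPM and the sham mean was 98.4 CPM. Its difference in log2FC was 1.53 with the block (SE 0.25, p.adj = 0.000388) and 1.04 without (p.adj = 0.57). Gnao1, a G-protein alpha subunit, differed by 1.56 (p.adj = 0.00016), Ptprz1, a glial receptor phosphatase, by 1.39 (p.adj = 0.00174), and Slc1a2, the astrocytic glutamate transporter, by 1.15 (p.adj = 0.00662). In separate fits, Aldoc had a log2FC of 0.29 in double-positive and -0.75 in CD11b libraries, and Gnao1 of 0.41 and -0.89. None of these 4 genes had a p.adj below 0.708 in double-positive or below 0.639 in CD11b libraries alone.

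On the other side Ccr1 differed by -1.27 with the block (SE 0.27, p.adj = 0.0316) and by -0.86 without (p.adj = 0.567). In CD11b libraries its medians were 20.5 CPM in burn and 14.04 CPM in sham, and in double-positive libraries 10.9 and 15.7 CPM. The other gene with a more negative log2FC was Dnajc6, a clathrin-uncoating cofactor, at no more than 3.53 CPM in every double-positive library. Of the 15, Grb14, Flrt1 and Ighg2c had 0 CPM as the median in burn CD11b libraries, and sham medians of 0.893, 0.242 and 0 CPM. Their separate log2FC values were 1.69, 0.99 and 2.50 in double-positive against -6.34, -5.09 and -7.41 in CD11b libraries. Ighg2c was at 0 CPM in all burn and at 0 to 9.72 CPM in sham CD11b libraries, so its estimate is no bound on a difference. In double-positive libraries it was carried by burn mouse 20 and sham mice 18 and 19, with 176, 14.7 and 16.1 CPM.

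Marker lists of other cell types were read in the same fits. Of the 12 astrocyte markers, 10 had a more positive log2FC in double-positive than in CD11b cells at an unadjusted p below 0.05 with the block, against 1.93% of all genes, and 6 without it, against 3.25%. The median log2FC of burn over sham for this list was 0.35 in double-positive libraries, with 1 of 12 genes higher at an unadjusted p below 0.05, against 3.48% of all genes in that comparison, and -0.62 in CD11b libraries. Of the 14 border macrophage and monocyte markers, 5 had a more negative log2FC with the block, against 1.84% of all genes, with a list median of -0.67, and 0 without it, with a median of -0.22. The median log2FC of that list was above 0 in both populations, 0.18 in double-positive and 0.43 in CD11b libraries. Of the 12 endothelial markers 5 had a more positive and 1 a more negative log2FC with the block, and 3 and 0 without it. The median log2FC of burn over sham for the endothelial list was 0.079 in double-positive and -0.77 in CD11b libraries. In the same mice, the astrocyte list was higher in the double-positive than in the CD11b library in all 14, by 1.19 to 2.72 log2 units in burn and 0.80 to 2.38 in sham mice, and the groups overlapped. The batch-adjusted difference between burn and sham mice was 0.62 (exact permutation p = 0.135, adjusted p = 0.392). Without sham mouse 18 it was 0.90 (exact permutation p = 0.0159), and without each other mouse of batch 3 it was 0.50 to 0.79 (exact permutation p from 0.0873 to 0.238). The endothelial list gave the smallest p of the 13 lists, with a difference of 0.58 (exact permutation p = 0.0238, adjusted p = 0.31). It was higher in the double-positive than in the CD11b library in 8 of 8 burn and 2 of 6 sham mice. Without each mouse of batch 3 its difference was 0.44 to 0.70 (unadjusted exact permutation p from 0.0079 to 0.0476). With the level of the astrocyte list as a covariate, the blocked fit called 0 genes, and 4 of the 17 genes are members of that list. The fitted differences moved by unequal amounts. Rapgef4 went from 1.95 to 1.91, Gnao1 from 1.56 to 1.21 and Ccr1 from -1.27 to -1.16, while the list members Aldoc and Slc1a2 went from 1.53 to 0.82 and from 1.15 to 0.32. The part of astrocyte RNA in these differences cannot be read from the lost calls.

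**Figure D5:**
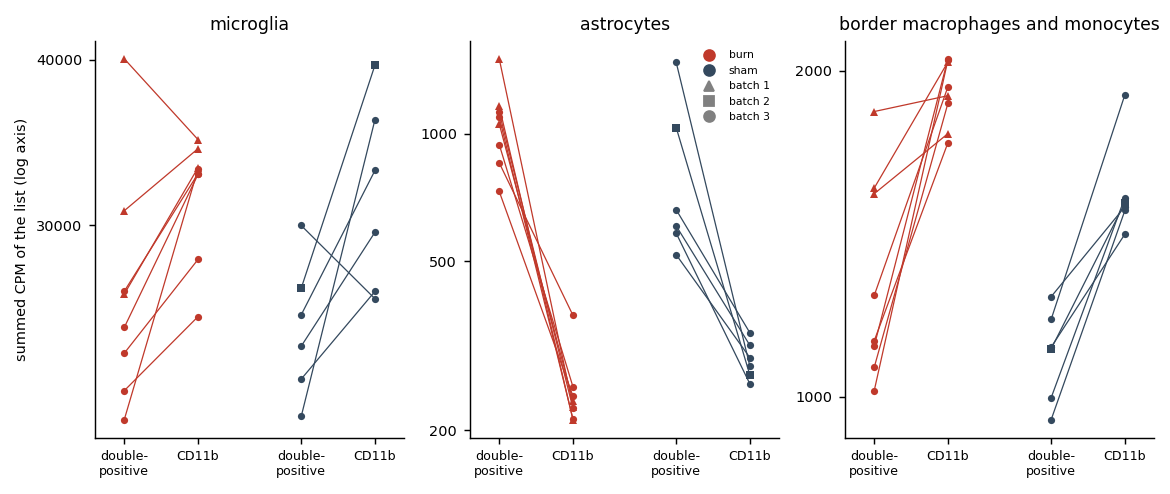
Summed CPM of 3 marker lists (log axes that do not start at 0) in the double-positive and CD11b-positive libraries of the same mice, joined by lines, burn in red and sham in dark, with the batch as the symbol. The astrocyte list falls from the double-positive to the CD11b library in all 14 mice and the border macrophage list rises in all 14, while sham mouse 18 is the uppermost sham point at the double-positive side of the astrocyte panel.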

How the data were processed

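Total RNA of sorted cells was sequenced from ribosomal RNA-depleted stranded libraries. The authors trimmed reads by 15 bases with fastp, aligned them with STAR to GRCm39 and counted them per Ensembl gene with GenomicAlignments, and deposited raw read counts with no normalisation, which were used here. The strand setting of the counting is not given in the sources used here. Their variance-stabilised tables were not used. Gene symbols, biotypes and chromosomes came from GENCODE M21 (GRCm38) and covered 52073 of 56980 identifiers, so no coordinates are given. CPM scales counts to the library total, and list levels are log2 of summed CPM plus 1.

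Genes with at least 10 counts in total were tested with edgeR 4.0.16 (R 4.3.3; TMM, quasi-likelihood, batch and treatment as terms, batch taken from the study's sample information), tested on simulated data. Genes were called at a Benjamini-Hochberg adjusted p up to 0.05 together with a log2FC of 1 or more in either direction. DESeq2 1.42.0 was an alternative, beside other filters, size factors, covariates, libraries and batches. List levels were compared by exact two-sided permutation of labels within batches. A floor of 3 counts corresponds to 0.0557 to 0.212 CPM, for counting error only.

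Mice were separate animals. The mouse block paired double-positive and CD11b-positive libraries of the same animals. Deviations of the pairs, over 13 mice and 8772 genes, had correlations of -0.25 to 0.38 (median 0.0686). Named were the sort's marker genes, 5 genes the study names, the 8 genes of smallest p per direction with a mean of at least 1 CPM, the member of smallest p of each function list and the most abundant of each marker list. Other list members are named for their roles. Results for some genes are not reported here. Members and lists were chosen with earlier results of these data known.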

Additional observations from a re-analysis of the deposited data

Results flagged for a closer look

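A library was singled out where its distance from the nearest other library of its group took up an unusually large part of the group's range (Dixon's criterion at the 95% level, on log2 of CPM plus 1). This held for 13 of 144 groups of values, and chance gives about 1 in 20. In burn mouse 10 the summed oligodendrocyte list was 462 CPM, its member Mbp, a myelin protein gene, 142 CPM, the neutrophil list 45.9 CPM and Ngp, a neutrophil granule gene, 13.9 CPM. The same mouse was the highest burn library for oligodendrocyte precursors, at 180 CPM, and endothelial cells, at 1063 CPM, which did not pass the criterion on that log scale. In burn mouse 20 Ighv1-59 was at 46.0 CPM and Igkv10-96 at 20.2 CPM. In burn mouse 7 8030474K03Rik was at 4.79 CPM, and in burn mouse 22 Grin1, an NMDA receptor subunit gene, at 2.38 CPM. Among sham libraries, the lymphocyte list was low in mouse 18 at 4.43 CPM. Rgs5, a pericyte gene, was at 2.61 CPM and Ngp at 0.294 CPM in mouse 17. The red blood cell list, through Alas2, was at 0.336 CPM in mouse 19.

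The signed log2FC of burn over sham differed between double-positive and CD11b-positive cells for 17 genes when the mouse was a block, in the edgeR quasi-likelihood test of the interaction. Without the block the test called 0 of 28752 genes, in a fit that also held the libraries of mice with a single population, so the block and the set of libraries changed together.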

How the results depend on the processing

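The 0 genes called between burn and sham stayed at 0 with other size factors, with library size alone, under edgeR's filterByExpr, without the batch term, in batches 2 and 3, in batch 3 alone, with a marker list as a covariate and with each mouse left out. The count was 2 with DESeq2, 14 with no filter and 136 with all deposited libraries, where sham mouse 8 had 331215 counts. No paired analysis was possible because burn and sham mice share no number within the population. With the mouse as a replicate block, the comparison with CD11b-positive cells called 17 genes, and 0 with the astrocyte list added to the block. There, differences such as those of Rapgef4 (1.91) and Mfsd2a (2.91) stayed near their blocked values of 1.95 and 3.22. Others fell, among them Ighg2c from 9.58 to 3.49, Fgfr3 from 1.82 to 1.17, Slc4a4 from 1.32 to 0.83 and Slc1a2 from 1.15 to 0.32. Grb14 rose from 10.88 to 14.24. Leaving out mice from the blocked fit gave 3 to 73 genes, with 73 without mouse 7, 59 without 10, 49 without 20, 44 without 2, 35 without 19, 31 without 18, 12 without 15, 8 without 13, 7 without 22, 6 without 24, 5 without 23, 4 without 16 or 21 and 3 without 17. Over these fits the difference for Ighg2c ran from -3.59 to 12.24, with the gene called in 12 of 14. The cause of these changes was not tested.

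Differences in list level near 0 changed sign. In TMM-scaled CPM, neutrophils were at -0.0020. With the list median in place of the sum, microglia were at -0.015, excitatory neurons at -0.066, mural cells at -0.098 and neutrophils at 0.00. In batch 3 alone, microglia were at -0.050, inhibitory neurons at -0.10 and mural cells at -0.18. With all deposited libraries, all neurons were at 0.84, lymphocytes at 0.56 and neutrophils at -0.016. Without a change of sign, the same libraries moved microglia to 2.20, astrocytes to 1.19, endothelial cells to 1.23 and border macrophages to 1.34. The unadjusted exact permutation p was then 0.0188 for astrocytes, 0.0175 for endothelial cells, 0.0320 for excitatory neurons, 0.0323 for border macrophages and 0.0495 for oligodendrocytes. The smallest adjusted p over the 13 lists was 0.105. A different quantity is the burn-sham difference in the within-mouse gap between double-positive and CD11b libraries, over 14 mice. It was -0.060 for microglia and -0.28 for border macrophages, and its sign is not that of a burn effect in double-positive cells. For the list levels themselves, with each mouse left out, the ranges were -0.050 to 0.059 for microglia, -0.10 to 0.15 for inhibitory neurons, -0.18 to 0.15 for mural cells, -0.15 to 0.063 for neutrophils and -0.0073 to 0.37 for red blood cells.

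Of the log2FC values of named genes, none of which was called by edgeR in the comparison as reported, some changed sign. With all deposited libraries, Csf1r was at 0.44, Cst3 at 0.33, Ticam2 at 0.051, Ctsh at 0.30, Gphn at 0.032, Irs2 at 0.16, Rgs5 at 0.15 and Cd79b at 0.097. With the astrocyte list as a covariate, Csf1r was at 0.014, Gabrb1 at -0.074, Cd79b at 0.039 and Ngp at 1.56. Without the batch term, Csf1r was at 0.11, Rgs5 at 0.64, Cd79b at 0.018 and Ngp at 5.03. Gad2 was at 0.088 with the list of all neurons as a covariate and Shank3 at -0.048 in batch 3 alone. With each mouse left out, Gad2 ranged from -0.65 to 0.12, Csf1r from -0.095 to 0.070, Shank3 from -0.047 to 0.30, Pdgfra from -0.040 to 1.02, Rgs5 from -0.44 to 0.074, Cd79b from -0.24 to 0.067, Ngp from -3.99 to 1.8e-11 and Alas2 from -1.23 to 4.42. Of 672 values of list medians under the alternatives, 631 moved by less than the SD of the list's mean log2 level between libraries of the same group and batch and 41 by more. Genes with few counts per library, among them most inhibitory-neuron markers, limit what these data can resolve.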

Other observations

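Histone genes were looked at together after their values were seen, so the counts describe these libraries only. Of 58 genes named Hist with a mean of at least 1 CPM, 10 had lower and 0 higher estimates in burn at an unadjusted p below 0.05, 45 had estimates below 0, and the median log2FC was -0.23. Among all genes of that level, 1.85% were lower and 1.30% higher at the same p. Within batch 3 the median was -0.31. No histone gene passed the adjusted threshold in edgeR (p.adj of at least 0.708), and their near-identical copies can share reads.

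The summed level of immunoglobulin genes was 725 CPM in burn mouse 20, against a burn median of 277 CPM and a sham range of 208 to 461 CPM.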
